A study of Mus musculus with 10 samples.

Results

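The effect of GYS1 loss in cells that already lacked AMPKα was read from 4 of the 10 RNA sequencing libraries of the series, 2 of J1-DKO and 2 of J1-AKO. The members were taken from the sample records, by genotype. AKO is the mouse embryonic stem cell (ESC) line J1 with AMPK knocked out, DKO carries the knockouts of AMPK and GYS1 together, and neither line received a treatment that the other did not. The other libraries were 2 each of unedited naïve J1 (WT), of GKO, in which GYS1 alone is knocked out, and of unedited primed J1 cells (PJ1). Per the labels, the naïve lines grew on gelatin in serum with LIF and inhibitors of MEK and GSK3, the 2i condition that holds ESCs in the naïve state. The labels repeat this medium for PJ1, whereas the study's methods give primed cells a medium of their own. The AMPK knockout was made with plasmids against AMPKα1 that also insert a red fluorescent reporter by homology-directed repair. How many clones stand behind the AKO and DKO lines, and whether the J1 DKO line was derived from AKO or from GKO, is not given in the sources used here. The labels do not say that the 2 libraries of a line came from separate cultures. The p-values below therefore set each difference against a spread between libraries that may be technical. All 10 libraries, the primed ones included, share the estimate of that spread.

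Glycogen synthase 1, encoded by Gys1, adds glucose units to the growing glycogen chain and is the isoform of most tissues outside the liver. AMPK, a kinase that is activated when cellular energy runs low, binds glycogen through its β subunit and restrains fatty acid and cholesterol synthesis while favouring fatty acid oxidation. In ESCs the enzyme pair is of interest because an inhibitor of GSK3, the kinase that inactivates glycogen synthase, is part of the naïve medium. The comparison of DKO with AKO asks what the loss of glycogen synthase changes when the catalytic subunit AMPKα1 is already gone.

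The targeted site is shown first because it defines the lines. The Gys1 knockout was aimed at exon 9 of the gene, which is coding throughout and is 1 of the 16 exons of the transcript Gys1-201. In the assembly GRCm39 the exon covers 60 bases of the plus strand at chr7:45094056-45094115, within a gene that runs from base 45084175 to 45106058 of chromosome 7. Its reference sequence, read from the assembly and printed in lower case with no base marked, is as follows.
Gys1 exon 9: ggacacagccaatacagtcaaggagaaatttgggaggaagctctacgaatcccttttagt

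Levels are given as TPM, the abundance of a gene's transcripts relative to all transcripts of the library, corrected for transcript length. Gys1 was at 12.7 and 12.2 TPM in AKO and at 12.1 and 11.7 TPM in DKO. The DKO libraries were the lower ones without overlap, by 0.05 on the log2(TPM + 1) scale (SE 0.06, adjusted p = 0.51), which did not pass the test. The same lack of overlap, with DKO the lower, was seen for 39.2% of all tested genes. An insertion or deletion need not lower the mRNA, so Gys1 mRNA does not check the genotype. Prkaa1 (chromosome 15, bases 5173186 to 5211750, plus strand), which encodes AMPKα1, was at 7.24 and 6.94 TPM in AKO and at 2.30 and 2.04 TPM in DKO, against 15.5 and 16.6 TPM in WT. The AKO mean was 44.2% of WT and the DKO mean 13.5% of WT. Prkaa1 thus differed within the comparison itself, by -1.35 (SE 0.07, adjusted p = 3.4e-06), and the lines cannot be taken to differ in GYS1 alone. The mRNA of Prkaa2 (chromosome 4, bases 104886845 to 104967102, minus strand), the gene of the second catalytic subunit AMPKα2, was present in both lines, with 2.71 and 2.44 TPM in AKO and 3.29 and 3.10 TPM in DKO. Its rise of 0.23 (SE 0.08, adjusted p = 0.041) passed the test narrowly and was lost when any 1 of the 4 libraries was left out, with an adjusted p of up to 0.204 (without AKO replicate 2). Protein was not measured in these data, so a line without any AMPKα is a statement of the label.

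**Figure D1:**
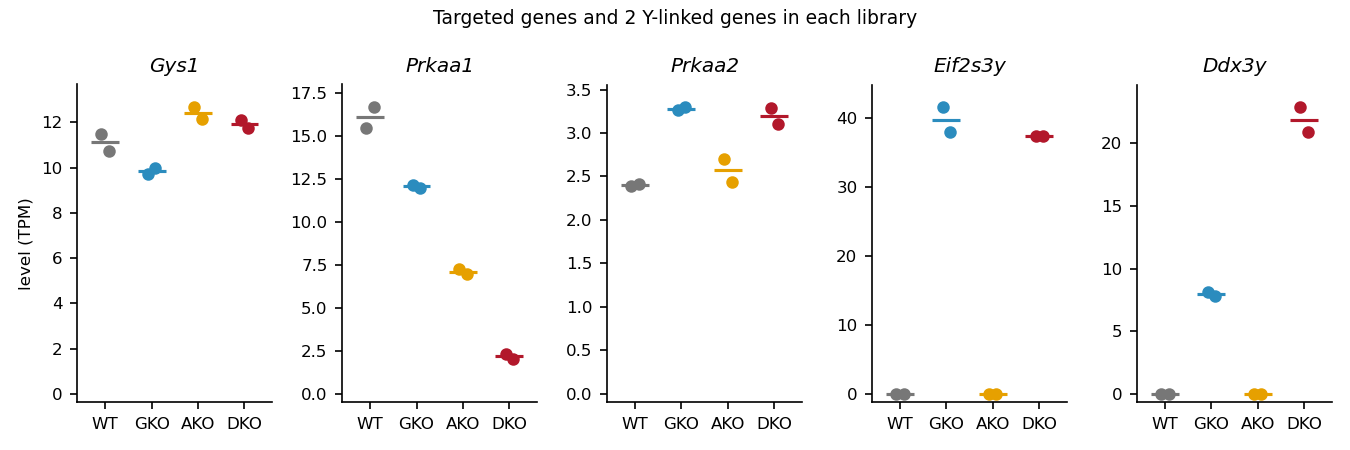
Levels in TPM (vertical axis, from 0) of Gys1, Prkaa1, Prkaa2 and 2 Y-linked genes in the lines WT, GKO, AKO and DKO; points are libraries and bars are means of 2. Prkaa1 steps down from WT to AKO and again to DKO, and the Y-linked genes are at 0 in WT and AKO and above 0 in GKO and DKO.

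The cells were checked against markers before the groups were compared. All 9 naïve markers (Nanog, Zfp42, Esrrb, Klf2, Klf4, Nr0b1, Tfcp2l1, Pou5f1 and Sox2) were above 1 TPM in all 4 libraries, the lowest value being 30.1 TPM, and their summed level was 2694 and 2707 TPM in AKO and 2824 and 2895 TPM in DKO. Markers of other cell types were low, with summed levels of 1.07 to 1.79 TPM over 5 primitive endoderm markers and 3.36 to 3.54 TPM over 6 fibroblast markers. Over 5 trophectoderm markers the sum was 2.70 and 2.80 TPM in AKO and 7.5 and 7.45 TPM in DKO, most of it Cdx2. Over 4 neural markers it was 48.0 and 50.1 TPM in AKO and 67.5 and 70.8 TPM in DKO, nearly all of it Tubb3. The summed level of 5 primed markers was 41.0 and 40.3 TPM in AKO and 48.6 and 50.4 TPM in DKO. Of the 4 primed markers tested, 1 rose (Dnmt3b) and 2 fell (Otx2 and Zic2). No marker of these lists was at 0 in all 4 libraries. The part of other cell types in the results was not tested. In bulk RNA, more cells of a type and more RNA per cell cannot be told apart.

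The lines also differed in chromosome content as far as mRNA shows it. J1 is a male line, yet none of the 167 Y-linked genes in the files was above 0 TPM in AKO or in WT. Eif2s3y, a translation initiation factor subunit of the Y chromosome, was listed at 0 in both AKO libraries and at 37.3 and 37.4 TPM in DKO. Ddx3y, an RNA helicase, was listed at 0 in AKO and at 22.9 and 20.9 TPM in DKO, and Uty, a histone demethylase, was at 0 in AKO and at 7.05 and 6.24 TPM in DKO. Over chromosome 14 the median difference between DKO and AKO was 0.38, with 272 of 400 tested genes higher and 10 lower. The medians were -0.29 on X (29 higher and 253 lower of 435), -0.26 on 19 (30 and 221 of 399), -0.20 on 15 (56 and 214 of 467) and 0.09 on 8 (214 and 76 of 655). On each of the other 15 chromosomes the median lay between -0.04 and 0.04, but parts of some were shifted. With the genes of a chromosome taken in order and divided at their middle, the median was -0.20 in the first part of chromosome 12 and 0.06 in its second, and 0.02 and -0.12 in those of chromosome 5. The second part of chromosome 5 was also lower in GKO minus WT (-0.18). GKO against WT showed like shifts on 14 (0.47), 19 (-0.40), 15 (-0.16) and 8 (0.08). Chromosome 6 was higher in GKO minus WT (0.14) but not in DKO minus AKO (-0.00057). The first part of X was lower in both, at -0.40 in GKO minus WT and -0.32 in DKO minus AKO. Its second part was higher in GKO minus WT (0.31) and lower in DKO minus AKO (-0.25). A gene's own response and the copy number of its chromosome cannot be told apart for genes of these chromosomes. Several counts below are therefore also given, from the same fit, without chromosomes 8, 14, 15, 19, X and Y (called the shifted chromosomes). Counts without such a statement, and all list counts of GKO and of the difference between the effects, are over all chromosomes. Leaving the shifted chromosomes out does not remove the regional shifts of chromosomes 5 and 12, or the shift of chromosome 6 in GKO minus WT. Nor does it remove chromosome 16, with a median of -0.09 in GKO minus WT, or the first part of chromosome 17 (-0.11).

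**Figure D2:**
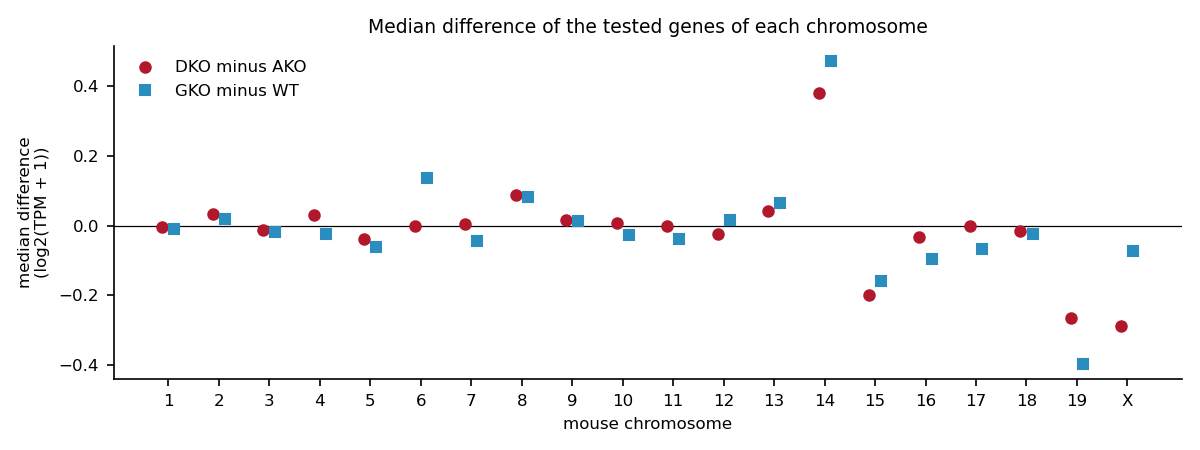
Median log2(TPM + 1) difference of the tested genes of each chromosome, for DKO minus AKO (circles) and GKO minus WT (squares), over 291 to 971 genes a chromosome; Y, with 4 tested genes, is not drawn. Chromosome 14 lies above 0 and chromosomes 15 and 19 lie below 0 in both comparisons.

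Of 21853 genes in the files, 12060 reached 1 TPM in at least 2 of the 10 libraries and were tested with limma on log2(TPM + 1), with Benjamini-Hochberg adjustment over all of them. A gene is called at an adjusted p under 0.05, and every difference below is DKO minus AKO on this scale unless stated. Between DKO and AKO 5587 genes were called, 46.3% of those tested, of which 2702 (22.4%) were higher and 2885 (23.9%) lower in DKO. The sum of TPM over the genes in the files was 578952 and 576604 in AKO and lower, 531062 and 559117, in DKO, and when the values were first rescaled to a common sum, the split was 3380 higher and 2024 lower. Most changes were small: 1932 called genes differed by at least 0.5, 375 by at least 1 (245 higher and 130 lower) and 23 by at least 2. For comparison, the median gap between the 2 libraries of a line was 0.07 in AKO and 0.07 in DKO. The libraries of the lines did not overlap for 77% of all tested genes, 37.8% with DKO the higher and 39.2% with DKO the lower. Among 9398 genes of the 15 chromosomes not left out as shifted 43.3% were called.

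Apart from the Y-linked genes, the largest rises among genes with at least 5 TPM on average in the higher line were those of Cryab, Zbtb10, Stmn3, Epp13, Ckmt1, Rtkn and Dok1. Cryab, the small heat shock protein αB-crystallin, was at 1.23 and 0.93 TPM in AKO and at 9.53 and 12.5 TPM in DKO (2.52, SE 0.18). Zbtb10, a zinc finger repressor, went from 2.12 and 1.99 TPM in AKO to 17.4 and 15.7 TPM in DKO (2.52, SE 0.09). Ckmt1, the mitochondrial creatine kinase that buffers ATP, stood at 1.88 and 2.09 TPM in AKO and at 13.0 and 14.4 TPM in DKO (2.30, SE 0.08). For each of these genes the lowest DKO library was several times the highest AKO library. The largest falls were those of Gm364, 1700013H16Rik, Smoc1, Magea4, Fmr1nb, Xlr3a, Efhc2, Pramel6, Sohlh2 and Pnma5, of which 6 are X-linked. Smoc1, a secreted modulator of BMP signalling on chromosome 12, fell from 6.90 and 6.14 TPM to 0.66 and 0.45 TPM (-2.27, SE 0.19). Sohlh2, a germ cell transcription factor on chromosome 3, fell from 15.9 and 14.6 TPM to 2.50 and 3.12 TPM (-2.10, SE 0.11). Magea4, Xlr3a and Pramel6 belong to families of near-identical copies, among which reads can be divided wrongly, so their values are uncertain.

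Targets of the tumour suppressor p53 had the highest share of members called in 1 direction among the lists examined. Of 17 tested, 15 rose and 1 fell in DKO, with a median difference of 0.67 against 0.00 over all genes. Perp, a membrane protein of p53-dependent apoptosis, was at 3.23 and 3.98 TPM in AKO and at 14.5 and 14.6 TPM in DKO, a 4.04-fold difference of the means (1.76, SE 0.20, adjusted p = 0.00017). Trp53inp1, a stress-induced partner of p53, was at 34.7 and 35.6 TPM in AKO and at 91.8 and 94.0 TPM in DKO (1.38, SE 0.07, adjusted p = 3.3e-06). Both genes had DKO libraries far above the AKO libraries, with replicates close together. Plk2, a kinase of the stress response, rose by 1.58 (SE 0.28) and Phlda3, an inhibitor of Akt, rose from 29.55 and 30.01 TPM to 63.2 and 70.8 TPM (1.14, SE 0.10). The feedback regulator Mdm2 was at 31.1 and 33.9 TPM in AKO and at 53.1 and 57.7 TPM in DKO (0.75, SE 0.10), and the pro-apoptotic genes Pmaip1 (0.94, SE 0.10) and Bbc3 (0.89, SE 0.17) rose too. Trp53 itself rose from 238 and 238 TPM to 295 and 308 TPM (0.34, SE 0.08). The single gene to fall was Cdkn1a, the cyclin-dependent kinase inhibitor p21, at 87.0 and 86.5 TPM in AKO and 61.7 and 68.4 TPM in DKO (-0.41, SE 0.14, adjusted p = 0.041). This call was lost when any 1 of the 4 libraries was left out, with an adjusted p of up to 0.188 (without DKO replicate 1), and that of Trp53 was lost without DKO replicate 2 (adjusted p = 0.0579). Bax, an effector of apoptosis, was not called (0.05, SE 0.04). Off the shifted chromosomes the counts were 14 risen and 1 fallen of 16, and over all alternatives the number risen ran from 12 to 16.

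The program of ATF4, the transcription factor that induces amino acid synthesis and transport under stress, went the other way. Of 22 tested entries of this list 15 fell and 4 rose, with a median of -0.53. Atf4 itself, on chromosome 15, was at 282 and 276 TPM in AKO and at 162 and 173 TPM in DKO (-0.73, SE 0.05). Chac1, which degrades glutathione and is a sensitive ATF4 target, fell from 13.2 and 11.6 TPM to 3.16 and 2.74 TPM, a 4.22-fold difference of the means (-1.77, SE 0.11, adjusted p = 1e-05). Trib3, a pseudokinase induced by ATF4, was at 18.4 and 15.6 TPM in AKO and at 9.20 and 9.47 TPM in DKO (-0.80, SE 0.10). Each of these genes had both DKO libraries below both AKO libraries, as did 39.2% of all tested genes. The cystine carrier gene Slc7a11 was low throughout, with 0.70 and 0.73 TPM in AKO and 0.02 and 0.03 TPM in DKO, and its fall of 0.74 understates the ratio at such levels. Asns, asparagine synthetase, was at 523 and 522 TPM in AKO and at 449 and 468 TPM in DKO and was not called in the fit with all lines (-0.19, SE 0.13, adjusted p = 0.26), whereas it was called lower without the primed libraries (adjusted p = 0.00737). The 4 members that rose were Ddit4 and Sesn2, both inhibitors of mTORC1 signalling, Cth, which makes cysteine, and Atf5. Ddit4 was at 11.5 and 8.17 TPM in AKO and at 24.9 and 27.6 TPM in DKO (1.35, SE 0.25). Sesn2 is also a p53 target and stands in both lists. Without the shifted chromosomes 9 of 15 fell and 4 rose, and over all of them the number risen was 2 without AKO replicate 1, DKO replicate 1 or DKO replicate 2.

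The bases before the starts of a pair of these genes are shown because both carry the same element, while the fall of Chac1 was large and the difference of Asns was small and called only without the primed libraries. The letters TGATGNAA, on either strand, form the composite element to which ATF4 binds with C/EBP partners. They occur in the 250 bases before the RefSeq start of 209 of 9506 tested genes with such a sequence (2.2%) and of 6 of 20 genes of the ATF4 list, namely Asns, Atf3, Chac1, Pck2, Slc7a11 and Vldlr, of which 4 fell and none rose. Over the 209 genes 29.2% rose and 22.5% fell, beside 22.4% and 23.9% of all tested genes. A match is a description of letters, not of binding. In the assembly GRCm38.p6 the window of Chac1 lies at chr2:119350992-119351241 on the plus strand and that of Asns at chr6:7693210-7693459 on the minus strand. Both read 5′ to 3′ toward the start, with the element in capitals, which begins 193 bases before the start in Chac1, where it is on the opposite strand, and 23 bases before it in Asns.
Chac1: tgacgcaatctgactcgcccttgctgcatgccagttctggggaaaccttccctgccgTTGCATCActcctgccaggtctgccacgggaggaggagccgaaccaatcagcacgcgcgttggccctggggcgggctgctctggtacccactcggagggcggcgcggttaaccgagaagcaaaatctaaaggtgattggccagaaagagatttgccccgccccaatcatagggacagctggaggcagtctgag
Asns: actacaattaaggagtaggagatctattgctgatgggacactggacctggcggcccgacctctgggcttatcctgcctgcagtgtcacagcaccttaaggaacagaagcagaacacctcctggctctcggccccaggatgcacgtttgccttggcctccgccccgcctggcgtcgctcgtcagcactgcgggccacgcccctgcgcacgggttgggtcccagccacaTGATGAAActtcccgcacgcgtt

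Serine synthesis and one-carbon metabolism, which feed nucleotide and methyl group synthesis, share 5 genes with the ATF4 list. Of 19 tested entries 11 fell and 3 rose, with a median of -0.36, and off the shifted chromosomes 9 of 13 fell. Psat1, the second enzyme of serine synthesis, was at 353 and 342 TPM in AKO and at 144 and 140 TPM in DKO (-1.29, SE 0.07, adjusted p = 4.2e-06), but lies on chromosome 19. Phgdh, the first enzyme, on chromosome 3, was at 74.0 and 68.6 TPM in AKO and at 39.4 and 44.6 TPM in DKO (-0.75, SE 0.09). The mitochondrial folate enzymes Mthfd2 (-0.76, SE 0.06) and Shmt2 (-0.42, SE 0.09) fell as well. The genes that rose were Mthfd1, Amt and Gldc, the last being the decarboxylase of the glycine cleavage system, which lies on chromosome 19 and was at 12.1 and 11.4 TPM in AKO and 17.92 and 16.97 TPM in DKO (0.53, SE 0.06).

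**Figure D3:**
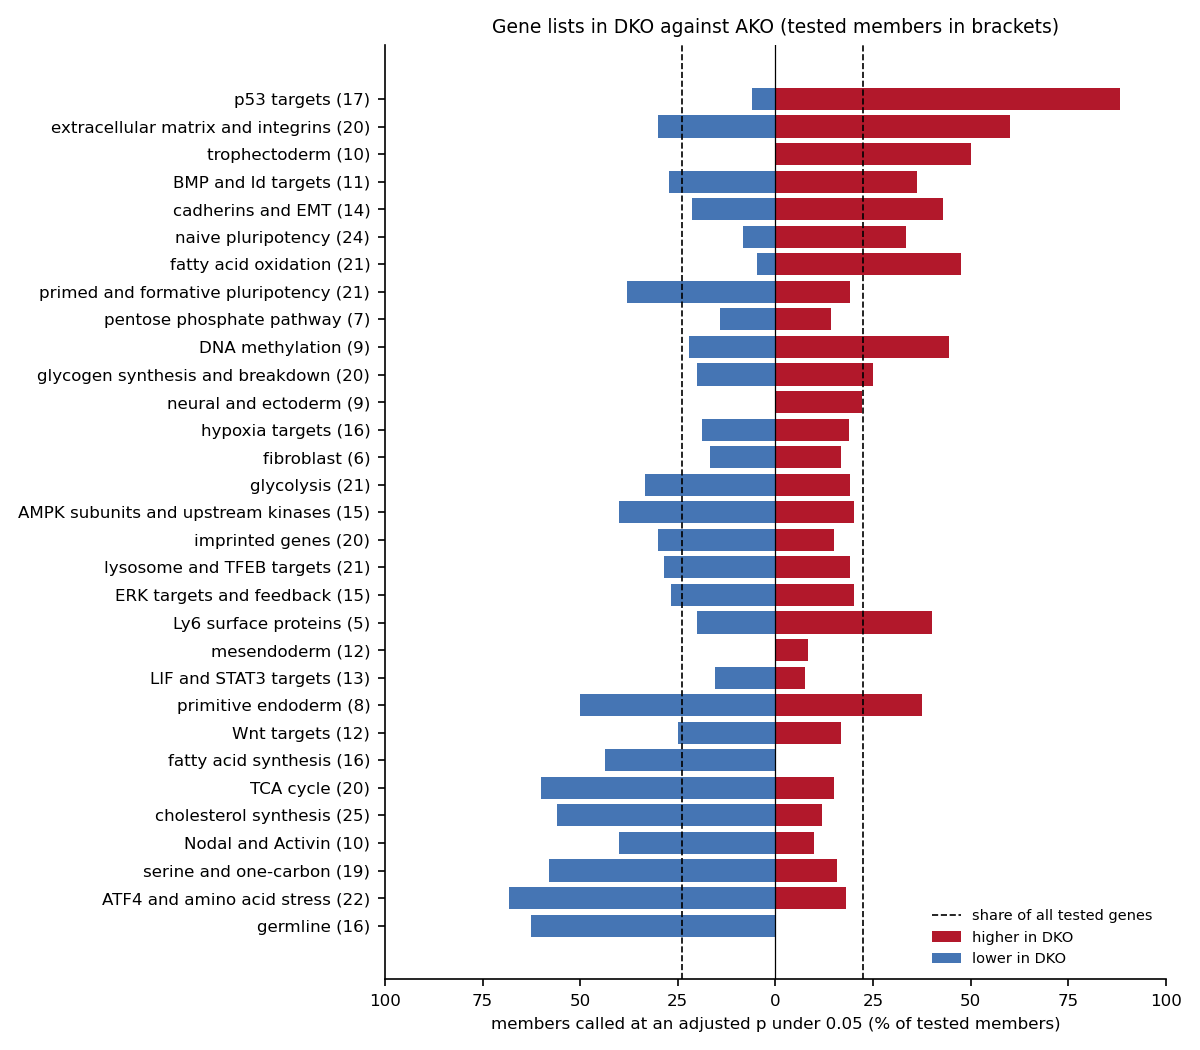
Share of the tested members of each gene list called higher (red, right) or lower (blue, left) in DKO than in AKO, in percent, with lists ordered by their median difference; dashed lines mark the 22.4% and 23.9% of all tested genes. The p53 targets reach 15 of 17 on the right, and the ATF4 list reaches 15 of 22 on the left.

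In the cholesterol synthesis pathway 14 of 25 tested genes fell, 3 rose and 8 were not called, with a median of -0.30. Insig1, which retains the SREBP regulators in the endoplasmic reticulum and is itself an SREBP target, was at 55.0 and 57.2 TPM in AKO and at 32.2 and 33.7 TPM in DKO (-0.75, SE 0.05, adjusted p = 1.2e-05). Srebf2, the regulator SREBP2, was at 71.0 and 70.9 TPM in AKO and at 52.8 and 54.4 TPM in DKO (-0.40, SE 0.04), and lies on chromosome 15. The replicates of these genes lay within a few TPM of each other and the lines did not overlap, as for 77% of all tested genes. Ebp and Nsdhl, enzymes of late sterol synthesis, fell by 0.93 and 0.75 but are X-linked. The genes that rose were Idi1 (0.51, SE 0.07) and Hmgcs1 (0.27, SE 0.04), both early enzymes of the pathway, and Pmvk (0.22, SE 0.07). Off the shifted chromosomes 9 of 17 fell and 3 rose.

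Of 16 tested genes of fatty acid synthesis 7 fell, none rose and 9 were not called, with a median of -0.20. Scd2, a desaturase that makes monounsaturated fatty acids, was at 378 and 376 TPM in AKO and at 185 and 182 TPM in DKO (-1.03, SE 0.06), and lies on chromosome 19. Me1, malic enzyme, which supplies NADPH, was at 36.9 and 37.1 TPM in AKO and at 19.4 and 19.7 TPM in DKO (-0.89, SE 0.04, adjusted p = 2.2e-06), on chromosome 9. Acly, which makes cytosolic acetyl-CoA, fell by 0.28 (SE 0.07) and Srebf1, the regulator SREBP1, by 0.43 (SE 0.13). The 2 central enzymes did not pass the test: Fasn was at 136 and 132 TPM in AKO and at 112 and 117 TPM in DKO (-0.23, SE 0.09, adjusted p = 0.0805), and Acaca, the acetyl-CoA carboxylase that AMPK phosphorylates, was at 22.7 and 20.2 TPM against 20.5 and 18.2 TPM (-0.14, SE 0.08, adjusted p = 0.197). For Fasn the lines did not overlap, as for 77% of all tested genes, and for Acaca they did. The number fallen was 3 without AKO replicate 1 or DKO replicate 1 and 4 without AKO replicate 2. The primed libraries, which share the fit, widen the spread of Fasn, and without them its adjusted p was 0.000897.

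Of 21 tested genes of fatty acid oxidation 10 rose, 1 fell and 10 were not called, with a median of 0.13, and none of the genes that rose lies on a shifted chromosome. Cpt1c, a member of the carnitine palmitoyltransferase family that binds malonyl-CoA, was at 6.07 and 5.68 TPM in AKO and at 15.4 and 14.9 TPM in DKO (1.23, SE 0.06, adjusted p = 3.7e-06). Slc25a20, the carrier that brings acylcarnitines into mitochondria, was at 43.7 and 42.1 TPM in AKO and at 55.8 and 53.3 TPM in DKO (0.34, SE 0.05). Acaa2, the thiolase of the last step of each cycle, was at 16 and 15.8 TPM in AKO and at 27.9 and 27.7 TPM in DKO (0.77, SE 0.08). In all 3 genes the DKO libraries stood above both AKO libraries, as in 37.8% of all tested genes. Acadm, the medium-chain dehydrogenase (0.20, SE 0.05), and Cpt2 (0.25, SE 0.07) rose by less. The gene that fell was Hadha, a subunit of the trifunctional protein (-0.18, SE 0.05). Cpt1a, the main carnitine palmitoyltransferase of most cells, was at 21.2 and 19.3 TPM against 21.3 and 20.6 TPM and was not called (0.05, SE 0.06). The count of risen genes depended on replicate number, with 6 called without AKO replicate 1 and 5 without AKO replicate 2 or DKO replicate 2.

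In glycogen metabolism, the pathway of the deleted enzyme, 5 of 20 tested genes rose and 4 fell, shares near those of all genes. Without AKO replicate 1, DKO replicate 1 or DKO replicate 2 the number fallen was 2. Gaa, the lysosomal glucosidase that degrades glycogen, was at 19.6 and 20.0 TPM in AKO and at 36.8 and 39.8 TPM in DKO (0.92, SE 0.08, adjusted p = 3.6e-05). Pygb, a glycogen phosphorylase, was at 3.03 and 2.96 TPM in AKO and at 4.67 and 4.87 TPM in DKO (0.53, SE 0.11), and Gsk3b, the kinase that inactivates glycogen synthase, rose by 0.34 (SE 0.07). Gbe1, the branching enzyme, was not called (0.07, SE 0.10). The genes that fell were Nhlrc1, the ubiquitin ligase malin, which was at 2.36 and 2.46 TPM in AKO and at 1.33 and 1.34 TPM in DKO (-0.55, SE 0.07), the phosphorylase kinase subunits Phka1 (-0.42, X-linked) and Phkb (-0.26, chromosome 8), and Gyg, the glycogenin that primes synthesis (-0.26, SE 0.09).

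Several genes of central carbon metabolism were lower in DKO, and others were higher. In the TCA cycle and the reactions that feed it 12 of 20 genes fell and 3 rose, with a median of -0.21, and off the shifted chromosomes 8 of 14 fell. The number fallen depended on scaling, with 5 under quantile normalization and 6 after rescaling. Among all 12060 tested genes 2744 and 2024 fell under these settings, and the median of the list was -0.12 and -0.13. Cs, citrate synthase, was at 182 and 179 TPM in AKO and at 137 and 135 TPM in DKO (-0.41, SE 0.04), and Fh1, fumarase, was at 40.4 and 38.8 TPM against 26.0 and 30.6 TPM (-0.47, SE 0.08). The falls were small but larger than the gaps between replicates. In glycolysis 7 of 21 entries fell and 4 rose, with a median of -0.03. That median was 0.05 under quantile normalization and 0.06 after rescaling. Ldha, which turns pyruvate into lactate, was at 1198 and 1097 TPM in AKO and at 733 and 752 TPM in DKO (-0.63, SE 0.06), and Gpi1 fell by 0.41 (SE 0.05). Pfkm and Pfkl, subunits of the committing enzyme phosphofructokinase, rose, the former from 7.27 and 7.25 TPM to 15.0 and 13.9 TPM (0.90, SE 0.06). Pfkm lies on chromosome 15, which was lower as a whole. Slc2a3, the glucose transporter GLUT3, rose from 373 and 380 TPM to 548 and 520 TPM (0.50, SE 0.11). Of 7 pentose phosphate genes Rpe rose, from 20.9 and 22.4 TPM to 43.4 and 44.8 TPM (0.99, SE 0.05), and G6pdx fell by 0.42, with the X chromosome.

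Among 15 AMPK subunits and upstream kinases 3 rose and 6 fell, shares of 20% and 40% beside 22.4% and 23.9% of all tested genes. Off the shifted chromosomes 3 of 13 rose and 4 fell, and after rescaling 3 of the 15 fell. Besides Prkaa1, the falls included Camkk2, an AMPK kinase, from 15.9 and 15.5 TPM to 10.7 and 10.7 TPM (-0.51, SE 0.07), and Stk11, the kinase LKB1, from 49.2 and 51.3 TPM to 39.2 and 42.1 TPM (-0.30, SE 0.06). Prkab2, a regulatory β subunit, rose from 5.81 and 6.08 TPM to 7.80 and 7.82 TPM (0.34, SE 0.09), and Map3k7 rose by 0.29 (SE 0.06). The regulatory subunits Prkab1 (0.09, SE 0.07) and Prkag2 (0.07, SE 0.11) were not called. Without AKO replicate 1 or DKO replicate 1 there were 3 falls and 1 rise, and without DKO replicate 2 there was also 1 rise.

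The naïve pluripotency network remained expressed in DKO, and part of it was higher than in AKO. Of 24 tested genes 8 rose and 2 fell, with a median of 0.14. The largest change was that of Dppa3 (Stella), which protects against DNA methylation, at 1.03 and 1.25 TPM in AKO and 4.12 and 5.79 TPM in DKO (1.46, SE 0.13, adjusted p = 4.4e-05). Nr5a2, a nuclear receptor of the naïve network, was at 24.2 and 25.1 TPM in AKO and at 36.9 and 35.2 TPM in DKO (0.53, SE 0.06). Tbx3 (0.52, SE 0.08), Tfcp2l1 (0.34, SE 0.05) and Esrrb (0.29, SE 0.04) rose by less, and Nr0b1, which is X-linked, rose by 0.53 (SE 0.11). X-linked genes were lower as a group. Nanog was at 458 and 443 TPM in AKO and at 521 and 500 TPM in DKO (0.18, SE 0.06, adjusted p = 0.041), a call that was lost when any 1 of the 4 libraries was left out (adjusted p of up to 0.183, without AKO replicate 2). The core factor Pou5f1 (Oct4) was at 802 and 817 TPM in AKO and at 776 and 838 TPM in DKO, with overlapping lines (-0.01, SE 0.09), and Sox2 (0.07, SE 0.08) and Zfp42 (Rex1; -0.08, SE 0.07) were not called either. Klf4 was at 116 and 112 TPM against 142 and 151 TPM, which missed the threshold in the fit with all lines (0.35, SE 0.14, adjusted p = 0.065) and passed it without the primed libraries (adjusted p = 0.000377). The genes that fell were Pecam1 (-0.55, SE 0.06) and Prdm14 (-0.21, SE 0.07). Off the shifted chromosomes the counts were 7 and 2 of 20, and quantile normalization or rescaling raised the number risen over all chromosomes to 13.

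Genes of the primed and formative states went in both directions, with 4 of 21 risen and 8 fallen. Otx2, the factor that redirects enhancers at the exit from naïve pluripotency, was at 6.44 and 6.51 TPM in AKO and at 2.39 and 2.98 TPM in DKO (-1.02, SE 0.09, adjusted p = 5.2e-05), on chromosome 14, most of whose genes were higher. Zic2, on the same chromosome, fell from 10.9 and 11.2 TPM to 4.48 and 5.37 TPM (-1.03, SE 0.11), and Sox4 fell from 6.30 and 5.67 TPM to 2.06 and 2.03 TPM (-1.20, SE 0.09). The 2 de novo DNA methyltransferases changed in opposite directions. Dnmt3a was at 18.0 and 16.6 TPM in AKO and at 9.40 and 9.27 TPM in DKO (-0.82, SE 0.07), whereas Dnmt3b was at 22.7 and 21.5 TPM in AKO and at 41.0 and 41.3 TPM in DKO (0.87, SE 0.06). Tet2, which oxidises methylcytosine, rose by 0.55 (SE 0.05) and Tdg, the glycosylase that removes the product, fell by 0.79 (SE 0.11). Fgf5, the common marker of the primed state, was below the filter on low values, at 0.04 and 0 TPM in AKO and at 0 and 0.14 TPM in DKO. Over the 9 genes of DNA methylation 4 rose and 2 fell. Off the shifted chromosomes 3 of 12 primed and formative genes rose and 3 fell. Over all chromosomes the number risen was 2 without AKO replicate 1, DKO replicate 1 or DKO replicate 2, and 9 without the primed libraries. That of DNA methylation genes was 2 without AKO replicate 1 or DKO replicate 2.

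**Figure D4:**
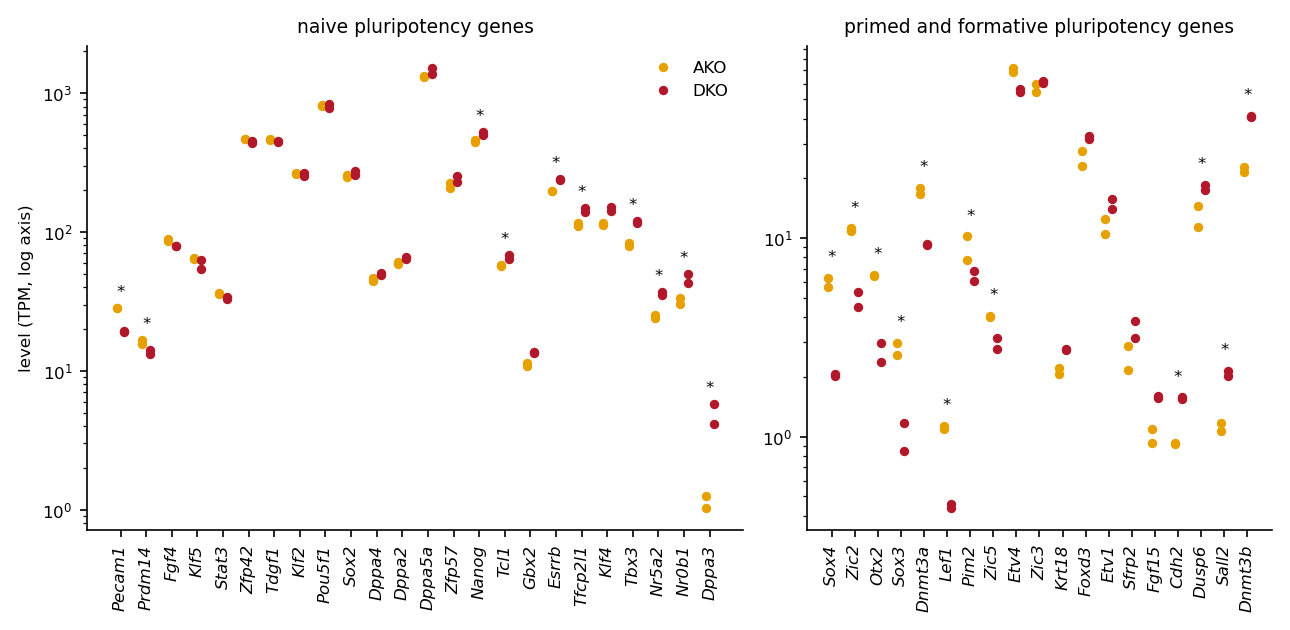
Levels (TPM, log axis) of naïve genes (left) and of primed and formative genes of at least 1 TPM on average in either line (right) in the 2 AKO and 2 DKO libraries, ordered by the difference between the lines; stars mark genes called at an adjusted p under 0.05. Dppa3 rises from about 1 TPM to 4.12 and 5.79 TPM, and Otx2, Zic2, Sox4 and Dnmt3a are lower in both DKO libraries.

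A wider view used the genes that differed by at least 1 between primed and naïve WT cells, a comparison that holds neither DKO nor AKO. Of 1954 genes higher in primed cells 27.2% rose and 12.2% fell in DKO, with a median of 0.06. Of 1401 genes lower in primed cells 24.5% rose and 35.5% fell, with a median of -0.06. Without the shifted chromosomes the falls among the latter were 30.8%, against 25.8% risen. These shares are to be read beside the 22.4% and 23.9% of all genes.

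Nodal signalling maintains primed cells and patterns the early embryo, and several of its genes carried a wide spread from the primed libraries. Of 10 tested genes 4 fell and 1 rose, with a median of -0.34, and off the shifted chromosomes 3 of 8 fell and none rose. Without AKO replicate 1 or DKO replicate 2 the number fallen was 2. Lefty2, a secreted Nodal antagonist, was at 293 and 264 TPM in AKO and at 96.2 and 97.9 TPM in DKO (-1.51, SE 0.55, adjusted p = 0.0504), and Lefty1 was at 23.89 and 19.03 TPM against 7.60 and 9.21 TPM (-1.25, SE 0.91, adjusted p = 0.29). The mesendoderm factor T (Brachyury) was at 13.4 and 13.2 TPM in AKO and at 4.94 and 4.89 TPM in DKO (-1.28, SE 0.60, adjusted p = 0.11). All 3 genes were lower in both DKO libraries without overlap, as were 39.2% of all tested genes. The 2 primed libraries differed widely at these genes, with Lefty1 at 477 and 34.0 TPM and T at 8.97 and 0.79 TPM, and without them the adjusted p was 1.2e-06 for Lefty2, 5.1e-05 for Lefty1 and 3.9e-06 for T. Nodal itself was at 51.6 and 52.5 TPM in AKO and at 54.2 and 60.6 TPM in DKO and was not called with or without them. Among 12 tested mesendoderm genes 1 rose, Cdx2, and none fell in the fit with all lines.

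Genes of other pathways changed in both directions. Of ERK targets 20% rose and 26.7% fell, of Wnt targets 16.7% and 25%, and of hypoxia targets 18.8% and 18.8%. These shares were near the 22.4% and 23.9% of all tested genes. The LIF and STAT3 list was below them (7.7% and 15.4%), and the BMP and Id list above (36.4% and 27.3%). Of 15 targets and feedback regulators of ERK 3 rose and 4 fell, and with 1 library left out 1 (without DKO replicate 2) or 2 (without any other) fell. Egr1, an immediate early gene, was at 88.2 and 81.8 TPM in AKO and at 31.9 and 29.8 TPM in DKO (-1.43, SE 0.36, adjusted p = 0.0576 without DKO replicate 2 and 0.0574 without AKO replicate 1), while Spry2, an ERK inhibitor on chromosome 14, was at 16.1 and 16.6 TPM in AKO and at 59.0 and 56.8 TPM in DKO (1.76, SE 0.07). The median difference over chromosome 14 was 0.38, and the chromosome's part in the rise of Spry2 was not tested. Wnt targets gave 2 risen and 3 fallen of 12, with Axin2 not called (-0.10, SE 0.08). In the list of LIF and STAT3 genes 1 of 13 rose and 2 fell, the latter being Pim3 and the receptor gene Lifr, both on chromosome 15, and Socs3 was not called (-0.20, SE 0.12). Without the primed libraries 7 of the 13 fell, Socs3 among them (adjusted p = 0.0102). In the list of BMP and Id genes 4 of 11 rose and 3 fell, with Smad9, a mediator of BMP signals, falling from 2.78 and 2.97 TPM to 0.61 and 0.48 TPM (-1.33, SE 0.08). The number of BMP and Id genes risen was 2 without AKO replicate 1 or DKO replicate 1 and 1 without AKO replicate 2 or DKO replicate 2. Of 16 hypoxia targets 3 rose and 3 fell.

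Among genes of other lineages, trophectoderm markers showed rises only, with 5 of 10 tested genes higher and none lower and a median of 0.33. Cdx2, the defining factor of that lineage, was at 1.93 and 1.97 TPM in AKO and at 6.73 and 6.86 TPM in DKO (1.40, SE 0.15), and Gata2 went from 0.79 and 0.30 TPM to 3.19 and 4.76 TPM (1.68, SE 0.18). The levels stayed low, and the trophectoderm genes Elf5, Hand1, Krt7 and Gata3 were under 1 TPM in all 4 libraries. Without AKO replicate 1 or DKO replicate 2 there were 3 rises in place of 5. Of 8 tested primitive endoderm genes 3 rose and 4 fell, 5 of the 8 being basement membrane genes that are also in the matrix list. Off the shifted chromosomes 3 of 4 primitive endoderm genes rose and 1 fell. Of 9 neural genes 2 rose, of 6 fibroblast genes 1 rose and 1 fell.

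Extracellular matrix and integrin genes rose more often than they fell, with 12 of 20 higher and 6 lower and a median of 0.39. Itgb5, an integrin β chain that binds vitronectin, was at 3.89 and 2.65 TPM in AKO and at 13.8 and 14.5 TPM in DKO (1.84, SE 0.18). Nid1, the basement membrane linker nidogen, was at 18.6 and 18.4 TPM in AKO and at 43.1 and 41.5 TPM in DKO (1.15, SE 0.07), and Hspg2, perlecan, was at 16.9 and 17.1 TPM against 37.6 and 37.6 TPM (1.10, SE 0.06). Other parts of the same basement membrane were lower in DKO. Lamb1, a laminin β chain, fell from 9.97 and 9.78 TPM to 4.68 and 4.54 TPM (-0.95, SE 0.06), and Itgb1, the common β chain, fell by 0.35 (SE 0.04). Itgb1 lies on chromosome 8, which was slightly higher. Off the shifted chromosomes 11 of 15 rose and 2 fell. In the list of cadherins and genes of the epithelial to mesenchymal transition 6 of 14 rose and 3 fell, among them Cldn6, a tight junction claudin, which rose from 1.44 and 1.32 TPM to 4.79 and 4.41 TPM (1.23, SE 0.15), and Cdh1 (E-cadherin), which fell by 0.17 (SE 0.05). Without AKO replicate 1 or AKO replicate 2 the number risen was 3.

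Of 16 tested germline genes 10 fell, none rose and 6 were not called, with a median of -0.70, and off the shifted chromosomes 5 of 9 were lower. Dazl, an RNA-binding protein of germ cells, was at 7.75 and 8.29 TPM in AKO and at 3.30 and 3.42 TPM in DKO (-1.05, SE 0.07), and Hormad1, of meiotic chromosomes, was at 4.68 and 5.19 TPM against 1.87 and 1.77 TPM (-1.07, SE 0.08). Most members were low, and among genes with a mean of at least 5 TPM over the 10 libraries 1 member fell. Of 20 imprinted genes 6 fell (30%) and 3 rose (15%), none of them on a shifted chromosome. Mest, expressed from the paternal allele, was at 184 and 189 TPM in AKO and at 80.5 and 83.1 TPM in DKO (-1.18, SE 0.14), and Phlda2, expressed from the maternal allele, was at 3.49 and 2.17 TPM against 8.17 and 9.30 TPM (1.36, SE 0.24). Lysosomal genes gave 4 risen and 6 fallen of 21, shares of 19.05% and 28.57% beside 22.4% and 23.9% of all tested genes. Off the shifted chromosomes 2 of 14 lysosomal genes rose and 3 fell. Hexa, a β-hexosaminidase subunit, was at 5.65 and 5.48 TPM in AKO and at 22.3 and 23.0 TPM in DKO (1.85, SE 0.14). Of 5 Ly6 surface proteins 2 rose and 1 fell, Ly6a (Sca-1) among the former, from 29.0 and 33.5 TPM to 75.8 and 80.8 TPM, a 2.51-fold difference of the means (adjusted p = 7.8e-05).

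Whether GYS1 loss acts alike with and without AMPKα was addressed by setting DKO against AKO beside GKO against WT, which share no library. In GKO against WT 6241 genes (51.7%) were called, 24.7% higher and 27.1% lower. Of the 5587 genes called in DKO against AKO 65.7% were also called there, which is 58.8% of the GKO calls, and of these 3672 genes 3214 (87.5%) changed in the same direction, 1525 upward and 1689 downward. Across the 12060 genes the differences had a Pearson correlation of 0.57, given as a description, since genes are not independent and DKO and GKO share the Y-linked signal and the shifts of chromosomes 14, 15 and 19. Without the shifted chromosomes the correlation was 0.53 and the share in the same direction 87.1%. The shift that both comparisons show on chromosome 5, and that of chromosome 6 in GKO minus WT, are still included. So are those of chromosome 16 and of the first part of chromosome 17 in GKO minus WT. The difference between the effects, (DKO minus AKO) minus (GKO minus WT), was called for 3116 genes (25.8%), 1576 (13.1%) positive and 1540 (12.8%) negative. It was called for all 458 genes that changed in opposite directions. Those genes were picked with both effects already called and of opposite sign, so that result follows from the choice and adds no support. The difference was not called for 2554 of the 3214 that changed in the same direction, which does not show that the effects are equal.

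The p53 targets were higher in both settings, with 11 of 17 risen and 2 fallen in GKO, and for 6 of them the effects differed, 5 of them with a higher value in DKO minus AKO. Trp53inp1 rose by 0.66 in GKO and by 1.38 in DKO (difference 0.72, SE 0.10, adjusted p = 0.0012), while Phlda3 rose by 1.24 and 1.14. Perp differed by 0.60 between the settings, which was not called. In the ATF4 list 10 of 22 fell and 3 rose in GKO, and the effects differed for 9, of which 7 had a lower value in DKO minus AKO. Chac1 fell by 1.11 in GKO and by 1.77 in DKO (difference -0.65, SE 0.16, adjusted p = 0.019). Phgdh was at 66.5 and 64.8 TPM in WT and at 64.5 and 64.2 TPM in GKO, a change of -0.03 against -0.75 in DKO (difference -0.72, SE 0.12, adjusted p = 0.0034).

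**Figure D5:**
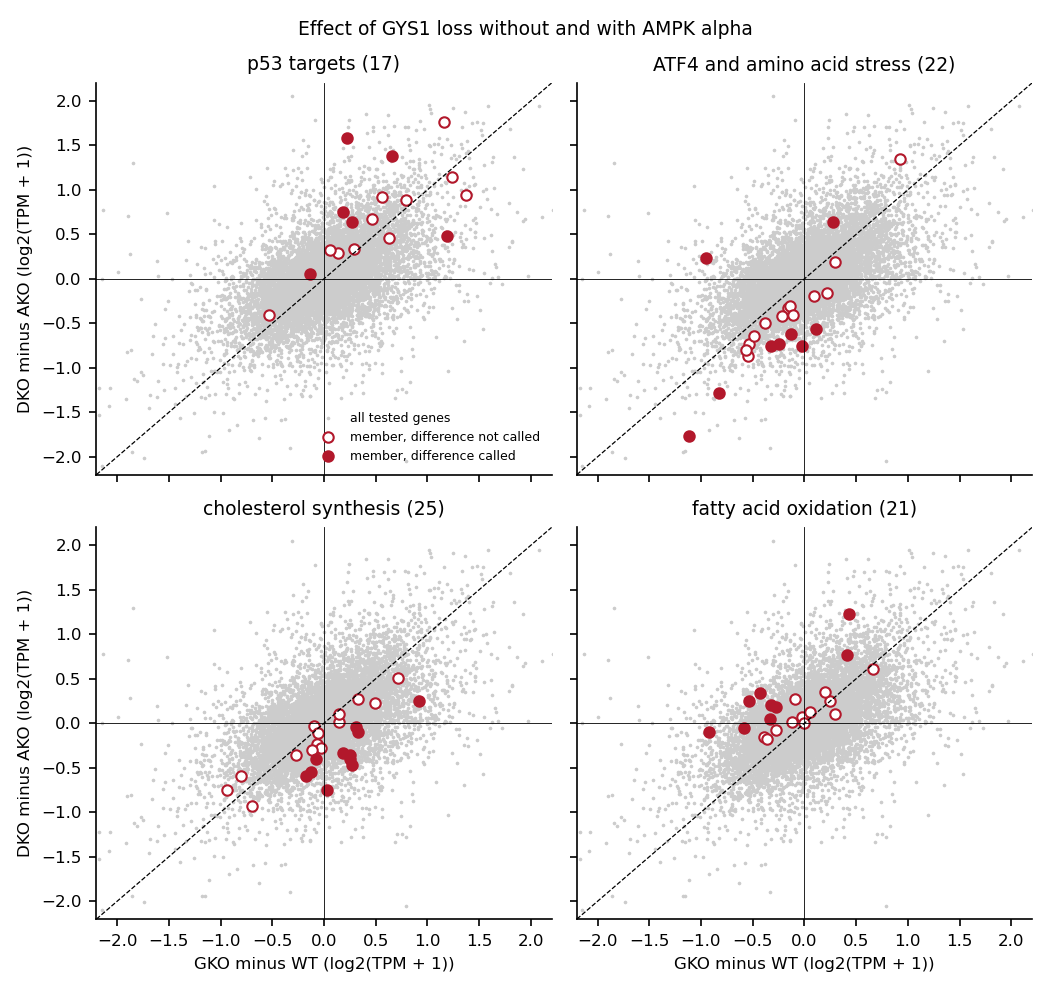
Log2(TPM + 1) difference of DKO minus AKO (vertical) against GKO minus WT (horizontal) for all tested genes (grey) and the members of 4 lists (red; filled where the difference between the effects is called), with the line of equal effects dashed. Axes stop at 2.2 on either side. Cholesterol synthesis genes lie below the line and fatty acid oxidation genes above it wherever the difference is called.

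Cholesterol synthesis genes fell in DKO (14 of 25) but mostly rose or were not called in GKO, where 10 rose and 3 fell. The difference was called for 11 of them and was negative for all 11. Insig1 was at 0.03 in GKO minus WT and at -0.75 in DKO minus AKO (difference -0.78, SE 0.07, adjusted p = 0.00019). Fatty acid oxidation showed the reverse, with 4 of 21 risen and 10 fallen in GKO and 9 differences called, all positive. Slc25a20 fell by 0.42 in GKO and rose by 0.34 in DKO (difference 0.76, SE 0.08, adjusted p = 0.000302), and Cpt1c rose in both, by 0.43 and 1.23 (difference 0.80, SE 0.09, adjusted p = 0.000502). Among the 16 genes of fatty acid synthesis 7 fell in either setting, with 3 risen in GKO and none in DKO, and the differences called were 3 positive and 4 negative. The glycogen glucosidase gene Gaa rose by 0.92 in DKO against 0.16 in GKO (difference 0.76, SE 0.11).

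The difference between the effects was called for 5 of 24 naïve genes and for 11 of 21 primed and formative genes. Otx2 was at 5.72 and 6.10 TPM in WT and at 5.28 and 6.09 TPM in GKO, a change of -0.05 against -1.02 in DKO (difference -0.97, SE 0.13, adjusted p = 0.0011). Zic2 rose in GKO, from 14.4 and 13.7 TPM to 33.7 and 33.3 TPM, and fell in DKO (difference -2.23, SE 0.15). Dnmt3a (0.18) and Dnmt3b (0.00) were not called in GKO, and their effects differed by -1.01 (SE 0.10) and 0.86 (SE 0.09). Dnmt3l, the cofactor of both, was at 208 and 211 TPM in WT and at 59.3 and 53.2 TPM in GKO, whereas it was at 161 and 172 TPM in AKO and at 198 and 207 TPM in DKO (difference 2.16, SE 0.09, adjusted p = 1.1e-05). For Esrrb (difference -0.08, SE 0.06), Nanog (0.06, SE 0.09), Klf4 (0.00, SE 0.20), Nr0b1 (0.11, SE 0.16) and Pou5f1 (0.16, SE 0.12) no difference was called. The difference for Prkaa1 was -0.97 (SE 0.10), since Prkaa1 fell by 0.38 in GKO and by 1.35 in DKO.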

How the data were processed

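RNA of 10 J1 libraries was measured by RNA sequencing of poly(A) RNA, 2 libraries per line. According to the methods and the submitters' processing notes, the authors trimmed reads with Trim Galore (0.6.6 in the notes), aligned them with STAR (2.7.9a in the notes, another version in the methods) and estimated TPM with RSEM (1.3.3). The deposited values are TPM per gene, 1 table per library, limited to 21853 protein-coding entries, so the listed TPM summed to 531062 to 578952 in the AKO and DKO libraries. Counts were not used here and depth cannot be read from TPM. The genome build differs between the notes and the methods. The files hold no positions, and chromosomes were taken by symbol from the GRCm39 annotation.

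Genes that reached 1 TPM in 2 or more of the 10 libraries were tested, as log2(TPM + 1), with limma 3.58.1 in R 4.3.3, with an intensity trend, all 10 libraries sharing 1 estimate of the spread, and Benjamini-Hochberg adjustment over 12060 genes. The scale understates the change of low genes. With 2 libraries against 2 no exact two-sided permutation p goes below 0.333, so the calls rest on limma's shared spread. On simulated data of the same size 76 of 100 changes of 0.5 and 95 of 100 changes of 1 were recovered, and 7 unchanged genes were called. The simulation gave the primed libraries the spread of the other lines. In the data the median gap between replicates was 0.13 in PJ1 and 0.06 to 0.07 in the other lines. Far fewer genes changed in the simulation than were called in the data. Its figures therefore do not measure recovery or false calls in the fit used here.

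The libraries were chosen by their labels, and the gene lists, members and tests were chosen with earlier results of these data known. Named genes were the targeted genes, the markers the study names, the 10 largest rises and falls among called genes with a mean of at least 5 TPM in the higher line and no overlap between libraries, the 5 largest differences of the GYS1 effects in each direction by the same limits, and up to 4 members of each list with the largest change. Other list members were named after their values were seen, and 4 genes are not reported here. Alternatives were a pseudocount of 0.1, no filter, a mean of at least 5 TPM, quantile normalization, median-ratio scaling, rescaling of the listed TPM to a common sum, no intensity trend, the replicate number as a block, other sets of libraries, chromosomes left out, each replicate left out and a change of at least 1.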

Additional observations from a re-analysis of the deposited data

Results flagged for a closer look

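The 3116 genes for which DKO minus AKO differed from GKO minus WT were picked out by limma's test of that difference, with Benjamini-Hochberg adjustment. The genes below passed that test. In each comparison the lines also differed in Y-linked mRNA, in the level of whole chromosomes and in Prkaa1. The part of GYS1 loss and of the AMPK background in the difference cannot be told apart from these. The largest positive differences were those of Rpl39l (3.15), Ly6a (3.14), Spint5 (2.91), Dok1 (2.36) and Dnmt3l (2.16). Rpl39l, a ribosomal protein paralog, was at 51.0 and 53.4 TPM in WT, 1.72 and 2.43 TPM in GKO, 45.9 and 44.7 TPM in AKO and 23.5 and 21.7 TPM in DKO, so that it fell in both settings, by far more in GKO. Its reads can be shared with its near-identical paralog, so these values are uncertain. Ly6a fell by 1.84 in GKO and rose in DKO. The largest negative differences were those of Tex13b (-4.23), 4930502E18Rik (-2.84), Zic2 (-2.23), Padi2 (-2.16) and Mthfd2l (-2.10). Tex13b, an X-linked germline gene, stood at 17.8 and 19.1 TPM in GKO and below 1 TPM in WT, AKO and DKO.

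Among the targeted genes and markers the difference was -0.97 for Prkaa1 and -0.97 for Otx2. Among lipid genes it was -0.78 for Insig1, -0.41 for Dhcr7, -0.65 for Scd2, 0.76 for Slc25a20 and 0.80 for Cpt1c. In the stress and serine lists it was -0.65 for Chac1, -0.47 for Psat1, -0.72 for Phgdh and 0.72 for Trp53inp1. It was -1.01 for Dnmt3a and 0.86 for Dnmt3b, the DNA methyltransferases, 0.86 for Pfkm, 0.76 for Gaa and 1.45 for Hexa. Ly6a, Prkaa1, Pfkm, Otx2, Zic2, Psat1 and Scd2 lie on chromosomes 14, 15 or 19, and Tex13b lies on X. By the parts of X the medians were -0.40 and 0.31 in GKO minus WT and -0.32 and -0.25 in DKO minus AKO. For all of these genes their chromosome's part in the difference was not tested.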

How the results depend on the processing

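Requiring a change of at least 1 left 375 of the calls between DKO and AKO, 433 between GKO and WT, 349 of the differences of the GYS1 effects and 133 of the genes called in both comparisons. Under the other alternatives the count for DKO against AKO ran from 4100 to 6659, with 4100 to 4292 when 1 library was left out, 6203 with those 4 libraries alone, 6659 without the primed libraries, 4154 at a mean of at least 5 TPM, 4715 without chromosomes 14, 19, X and Y and 4146 without chromosomes 8 and 15 as well, the last chosen after seeing the data. The count of differences ran from 1944 to 2400 when 1 library was left out, against 3116, and was 1944 without WT replicate 1, 1993 without WT replicate 2, 2062 without DKO replicate 2, 2071 without AKO replicate 1 and 2071 without GKO replicate 1. The cause was not tested.

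Of 151 genes named, 111 kept direction and call under all alternatives run. The genes that changed sign were not called: Gys1 was at 0.026 and Zfp42 at 0.0061 after rescaling, Klf2 at 0.10 under quantile normalization, 0.055 after rescaling and between -0.066 and 0.0068 with 1 library left out, Pou5f1 at 0.023 under median-ratio scaling, 0.17 under quantile normalization, 0.078 after rescaling and between -0.062 and 0.049 with 1 library left out, and Gbe1 at -0.034 and Prkag2 at -0.0011 under quantile normalization. With 1 library left out Cpt1a lay between -0.017 and 0.11, Gbe1 between -0.038 and 0.18 and Prkag2 between -0.039 and 0.19. Calls of 24 genes were lost under at least 1 alternative. Besides those given above, leaving out any 1 of the 4 libraries lost Cth, Gyg, Cpt2, Prdm14 and Vldlr, and leaving out some of them lost Acadm, Acly, Atf5, Cdh1, Dnmt3l, Hadha, Mthfd2l, Phkb, Pmvk, Prkab2, Spint5 and Srebf1.

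With the replicate number as a block 5409 genes were called between DKO and AKO, 2627 higher and 2782 lower, and 2875 differences. Deviations of same-numbered AKO and DKO libraries did not go together (r = -0.0048), nor did those of the other lines (r from -0.12 to 0.05), so the numbers do not pair the libraries. Among the lists, counts without the primed libraries were higher for glycolysis (7 risen against 4), hypoxia targets (5 risen and 5 fallen against 3 and 3), ERK targets (5 risen against 3), Wnt targets (5 fallen against 3) and mesendoderm genes (3 fallen against none). Depth could not be read from the TPM values, and the precision of low genes is unknown.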
